A study of Mus musculus with 20 samples.

Results

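Adult basal cells and adult mature luminal cells of the mouse mammary gland were compared by the open chromatin sites (ATAC-seq peaks) of 1 pooled list each. All peaks on the 19 autosomes and X were taken, 80294 from basal cells and 61584 from mature luminal cells. These 141878 peaks were part of 311456 regions in the 14 lists of the series. Each peak was called shared if it overlapped a peak of the other list by at least 1 bp, and unshared otherwise. ATAC-seq uses the Tn5 transposase to insert sequencing adapters into accessible DNA of isolated nuclei, so a peak marks a site where Tn5 cut more often than in the background.

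Both populations were sorted by flow cytometry from mammary glands of adult wild-type C57BL6J mice, with 2 samples for each. The sources used here do not state the age of the adults, the sort markers or the number of mice per sample. Lists used as context came from luminal progenitors of the same strain (2 samples), from the fMaSC population of embryonic day 18 (2 samples; fMaSC stands for fetal mammary stem cells), and from PY230. PY230 is a mouse mammary tumour cell line, grown here as transplanted tumours in mice of its own strain. Its luminal cells were sorted into 3 SOX10-high and 3 SOX10-low samples, and the authors deposited 1 list of open and 1 of closed regions, both named for the SOX10-high cells. SOX10, a transcription factor with an HMG box, acts in the neural crest and in glandular epithelia. The 8 normal samples and these 6 tumour samples were among 20 in the series.

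The mammary epithelium has a layered build. Basal cells form the outer layer, contract to eject milk and lie against the basement membrane. Mature luminal cells line the lumen, many of them carry oestrogen and progesterone receptors, and they pass hormone signals to their neighbours. Luminal progenitors share the inner layer and give rise to milk-secreting cells. Cell types of one tissue commonly share open promoters and differ mostly at distal enhancers, where lineage transcription factors bind. Which peaks were promoters or enhancers was not analysed here, because the gene annotation at hand was of the GRCm38 build while the peaks are given in mm9. For the same reason no region is tied to a gene, the cell type labels were not checked against marker genes, and no sequence is printed.

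Each list pools both samples of its cell type. There is therefore 1 value per cell type, no spread between mice, and no test between the cell types. Intervals are exact (Clopper-Pearson) 95% binomial intervals that cover counting error only, and the range over the 20 chromosomes shows how even a value was along the genome. Because nuclei were measured in bulk, fewer cells with a site open and less opening per cell cannot be told apart. Total reads per sample are not in the files used here. In each list every fold was a whole multiple of a fixed step (to within 0.001 of a step), 0.216 in the basal and 0.249 in the mature luminal list, with the lowest peak at 15 and at 14 steps. No source used here says what a step stands for. The basal list held 177 and the mature luminal list 175 distinct folds, so many peaks tie in rank.

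Basal and mature luminal cells held a common set of sites, and each also held many sites that the other list lacked. Of basal peaks, 36254 overlapped a mature luminal peak, which was 45.2% (44.8 to 45.5%), and 44040, or 54.8%, did not. Of mature luminal peaks, 37865 overlapped a basal peak, which was 61.5% (61.1 to 61.9%), and 23719, or 38.5%, did not. When peaks of both lists were merged into 103576 regions, 35817 regions (34.6%) held both cell types, 44040 (42.5%) basal cells alone and 23719 (22.9%) mature luminal cells alone. Unshared basal peaks outnumbered unshared mature luminal peaks by 1.86 to 1. This ratio rested on lists of unequal length: with the 30000 peaks of highest fold in each list, 13255 basal and 12941 mature luminal peaks were unshared, and the shares with an overlap were 55.8% and 56.9%. With both lists cut to peaks at or above their own median fold, 22159 basal and 11573 mature luminal peaks were unshared. In both settings an unshared peak met no peak kept in the other list. Some of these peaks overlap a weaker peak that was cut. These counts are set largely by list length, since nearly all overlaps are between single peaks: lists of equal length must have nearly equal numbers of unshared peaks, and the 41327 basal and 31049 mature luminal peaks at or above the median fold must not. They are no measure of which cell type has more sites of its own.

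With each peak counted whole, the unshared part was smaller in bases than in peaks. Unshared basal peaks covered 27.6 of 70.4 Mb, or 39.3% of the basal list, and unshared mature luminal peaks 11.7 of 43.9 Mb, or 26.6% of theirs. Base by base, the lists had 29.1 Mb in common, which was 41.4% of basal and 66.4% of mature luminal bases. By that measure the shared part of the basal list was smaller than in peaks (45.2%). That of the mature luminal list was larger than in peaks (61.5%). Unshared peaks were narrow, with a median width of 524 bp against 1006 bp for shared peaks in basal cells, and of 436 bp against 700 bp in mature luminal cells. Merged regions that held both cell types had a median width of 1095 bp.

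The overlap varied moderately between chromosomes. The share of basal peaks with a mature luminal overlap was lowest on chromosome 12 (40.6%), had a median of 44.9% over the 20 chromosomes and was highest on chromosome 7 (52.1%). The share of mature luminal peaks with a basal overlap ran from 56.9% on chromosome 3 through a median of 61.1% to 68.7% on chromosome 11. The basal list was the longer one on each of the 20 chromosomes, and since nearly all overlaps are between single peaks, its lower share and its larger number of unshared peaks follow from that length. The ratio of unshared basal to unshared mature luminal peaks was lowest on X (1.51) and highest on chromosome 11 (2.53), with a median of 1.91. Chromosome X carried 2.16% of shared and 1.75% of unshared basal peaks, against 2.18% and 2.15% of mature luminal peaks.

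**Figure D1:**
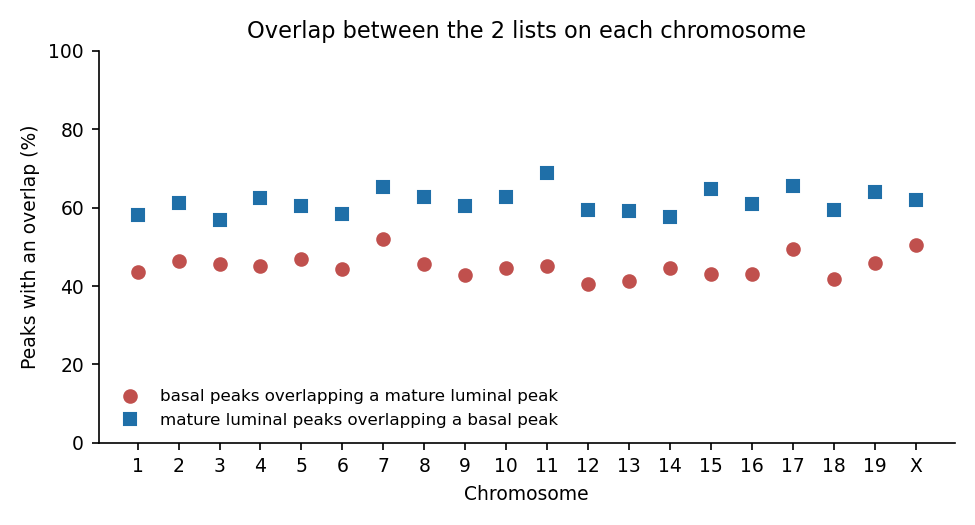
Share of peaks with an overlap of at least 1 bp in the other list (y axis, percent) on each chromosome (x axis), for basal peaks (circles) and mature luminal peaks (squares). Basal values run from 40.6% to 52.1% and mature luminal values from 56.9% to 68.7%, and the basal list is the longer one on every chromosome.

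The strongest sites of either cell type were nearly all open in the other. The authors' fold enrichment over background was used only as a rank within its own list. Of the 100 basal peaks of highest fold, 99 overlapped a mature luminal peak, and of the 100 strongest mature luminal peaks all 100 overlapped a basal peak. Among the strongest 1000 of each list, 19 basal and 26 mature luminal peaks were unshared. The shared part then fell with rank. With peaks of equal fold kept in the same decile, 16.6% (15.7 to 17.5%) of basal peaks were shared in the lowest decile, 34.2% in the fifth and 91.5% (90.8 to 92.1%) in the highest. In the mature luminal list the same deciles gave 43.3% (42.0 to 44.5%), 54.2% and 91.3% (90.6 to 92.0%). Both lists therefore met at the top. At the bottom the basal list lay mostly apart, while 43.3% of the lowest mature luminal decile still met the longer basal list. Of unshared basal peaks, 1.56% (687) lay in the highest decile of their list, and of unshared mature luminal peaks 2.29% (544).

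Width moved along with rank. In the basal list 21.6% of peaks of 200 to 299 bp and 91.9% of peaks of 2000 bp or more were shared, and the median width rose from 292 bp in the lowest decile by fold to 1757 bp in the highest. In the mature luminal list the shares at these widths were 40.8% and 98.2%. A wide peak has more bases that can meet a peak of the other list, and the parts of width and fold in the overlap were not separated. With every peak set to 500 bp, 43.4% of basal and 56.9% of mature luminal peaks were shared.

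**Figure D2:**
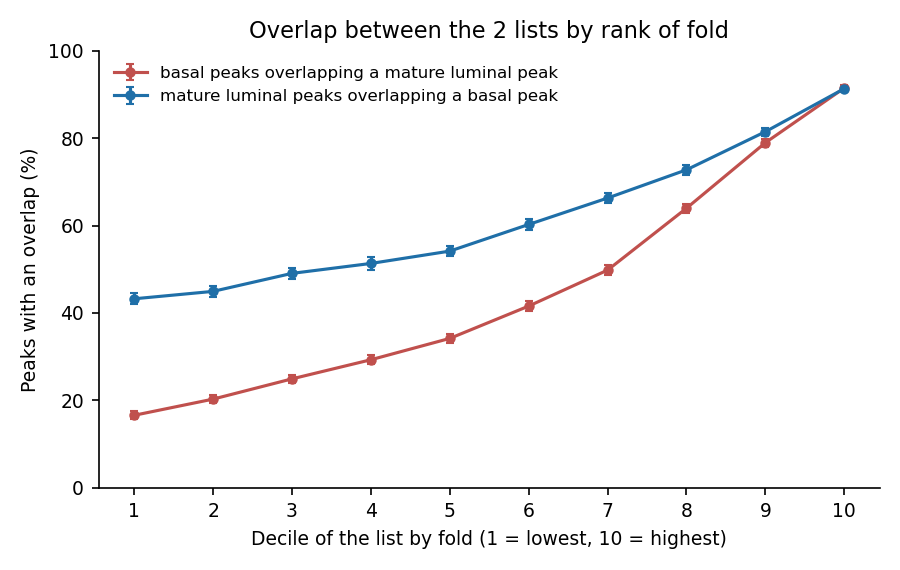
Share of peaks overlapping the other list (y axis, percent, bars are exact 95% binomial intervals) in each decile of a list ordered by fold (x axis, 1 = lowest). Both curves rise to just over 91% in the highest decile, from 16.6% for basal peaks and 43.3% for mature luminal peaks in the lowest.

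Most overlaps were between peaks that sat on the same site. Of shared basal peaks, 94.8% met a single mature luminal peak, and of shared mature luminal peaks 98.9% met a single basal peak. Shared mature luminal peaks were covered by basal peaks over a median of 100% of their length, and 61.2% of them lay wholly inside basal peaks. Shared basal peaks were covered over a median of 75.3% of their length, and 15.9% lay wholly inside mature luminal peaks. In 33623 pairs each peak had no further partner. In these pairs the midpoints lay a median of 77 bp apart, and the basal peak was the wider in 74.4%, with median widths of 970 and 705 bp. At the edge of the rule, 45 basal peaks were shared through 50 bp or less and 41 unshared basal peaks ended within 50 bp of a mature luminal peak. The median rank percentiles of these 2 groups were 14.0 and 17.3 (100 is the highest fold of the list). The mature luminal numbers were 60 and 44, with median percentiles of 15.7 and 23.0. Weak contacts at peak edges were thus few in either list.

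A few long sites met several peaks of the other list. A mature luminal peak of 22188 bp on chromosome 19, from 5821545 to 5843732 (mm9), overlapped 7 basal peaks. The widest of the basal peaks with 5 mature luminal partners spanned 8622 bp on chromosome 11, from 117823294 to 117831915. In all, 1873 basal and 400 mature luminal peaks had more than 1 partner.

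At shared sites the ranks of both cell types went together in part. Over the 33623 single-partner pairs, Spearman's rho between the rank of the basal and of the mature luminal fold was 0.56. This is a description across sites, which share the libraries and the width of the site, and rho between the 2 widths was 0.62. In 3605 pairs both peaks were in the highest decile of their list. That was 53.7% of the 6714 pairs with a top-decile basal peak and 68.7% of the 5245 with a top-decile mature luminal peak. In 9.90% of pairs the 2 percentiles differed by more than 50 points. The basal rank was the higher in 2067 of these pairs and the mature luminal rank in 1263. Shared peaks sat higher in the longer basal list, at a median percentile of 71.2 against 60.9 in the mature luminal list. Over the single-partner pairs the basal percentile was a median of 5.41 points above the mature luminal one. These counts are therefore no measure of which cell type leads more sites.

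**Figure D3:**
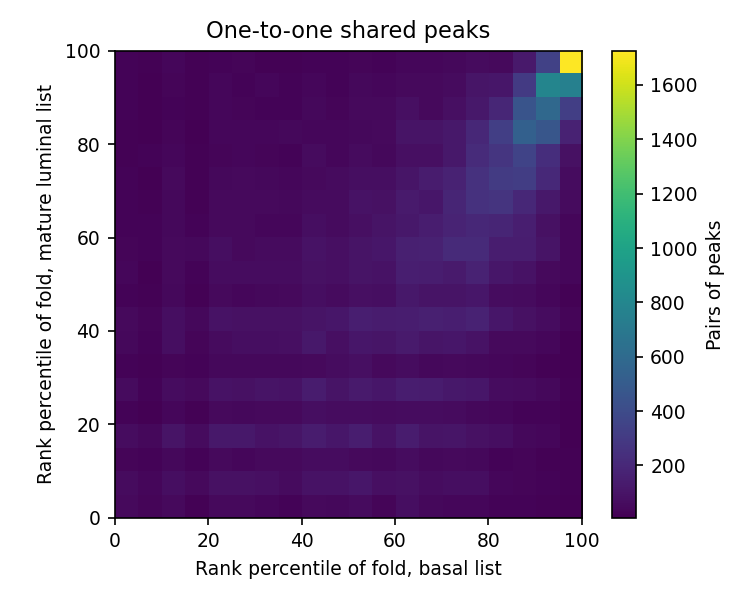
Rank percentile of fold in the basal list (x axis) and in the mature luminal list (y axis) for 33623 shared sites where each peak has a single partner, with colour for the number of pairs in each square of 5 by 5 points. The fullest square is the top right one, and pairs far from the diagonal make up 9.90% by the 50-point limit.

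Shared sites led by mature luminal cells differed from other shared sites in the regions of the tumour and fetal lists they met. Where the mature luminal rank was over 50 points higher, 50.4% of the mature luminal peaks overlapped a region closed in SOX10-high PY230 cells, against 6.34% of the basal peaks where the basal rank was as much higher. Pairs within 50 points, read at their basal peak, gave 10.5%. An fMaSC peak lay at 50.5% of the sites ranked higher in mature luminal cells, at 89.6% of those ranked higher in basal cells and at 85.5% of pairs within 50 points. Luminal progenitor peaks lay at 87.3%, 80.5% and 87.1%. Open PY230 regions were few, at 0.158% (2 sites), 1.64% (34 sites) and 0.307% (93 sites) in the same order. Sites led by mature luminal cells thus stood apart from pairs within 50 points in closed regions and fetal peaks. Those led by basal cells stood nearer to such pairs in these 2 lists, but met open regions more often and progenitor peaks less often. A site called shared can thus still lean to one cell type.

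The 5 pairs of largest rank difference in each direction were taken over all 38302 overlapping pairs. A peak in them can have further partners or touch its partner only at an edge, so not every such pair is a leaning site. On chromosome 10 a basal peak from 57204183 to 57207737 had a fold of 30.8 (percentile 99.4) and covered a mature luminal peak of 289 bp with a fold of 3.74 (percentile 0.290). The next lay on chromosome 5, where a basal peak from 53224180 to 53226318 had a fold of 30.4. It met a mature luminal peak with a fold of 3.74 over only 60 bp at its end. All 5 pairs led by basal cells also held fMaSC and luminal progenitor peaks, and 0 of the 5 met a PY230 region of either list. In the other direction, a mature luminal peak on chromosome 6 from 131147704 to 131148765 had a fold of 29.1 (percentile 98.3) and covered a basal peak of 241 bp with a fold of 3.66 (percentile 0.987). On chromosome 5 a mature luminal peak from 88823873 to 88824976 had a fold of 35.6 and covered a basal peak with a fold of 3.88. These 2 sites and one on chromosome 7, from 13849001 to 13850142, met closed PY230 regions and held a luminal progenitor but no fMaSC peak. The remaining 2 pairs led by mature luminal cells held fMaSC and progenitor peaks and no PY230 region. One of them was a mature luminal peak of 6115 bp on chromosome 1 that overlapped 5 basal peaks, of which the pair holds a single one of 379 bp.

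Among the lists compared, unshared basal and unshared mature luminal sites differed most in 2 respects, their overlap with fMaSC peaks and with closed PY230 regions. Of unshared basal peaks, 21047 (47.8%, 47.3 to 48.3%) overlapped an fMaSC peak, compared with 64.5% of all basal peaks. Of unshared mature luminal peaks, 3669 (15.5%, 15.0 to 15.9%) did, compared with 57.5% of all mature luminal peaks. The difference between the unshared classes was 32.3 points and lay between 27.7 and 36.9 points on single chromosomes, with the basal value higher on 20 of 20. Over all ranks together, luminal progenitor peaks set the classes apart much less. They lay at 26.2% of unshared basal (all basal peaks, 53.7%) and 26.7% of unshared mature luminal peaks (all mature luminal peaks, 63.7%), and the basal value was the higher on 9 chromosomes and the lower on 11. Shared peaks overlapped fMaSC peaks in 84.7% (basal) and 83.8% (mature luminal) and progenitor peaks in 87.2% and 86.8%.

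Taking fetal and progenitor peaks together, 77.8% of shared basal and 76.9% of shared mature luminal peaks held both. Of unshared basal peaks, 28.5% (28.1 to 28.9%) held an fMaSC but no progenitor peak, 6.92% a progenitor but no fMaSC peak, 19.3% both and 45.3% neither. Of unshared mature luminal peaks, 6.79% (6.48 to 7.12%) held an fMaSC but no progenitor peak, 18.01% a progenitor but no fMaSC peak, 8.68% both and 66.5% neither. Sites that mature luminal cells had and basal cells lacked were thus mostly without a peak in fetal or progenitor cells, and those with one were mostly found in progenitors alone. Among sites that basal cells had and mature luminal cells lacked, those found in fetal cells alone were the largest group with a peak elsewhere. The fMaSC list held 79910 peaks and the progenitor list 60030, and a longer list meets more peaks by number alone. Unshared basal peaks with neither had a median rank percentile of 23.7, the lowest of the 4 groups, while in the mature luminal list those with neither had 32.6 and those with an fMaSC peak alone 29.6.

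**Figure D4:**
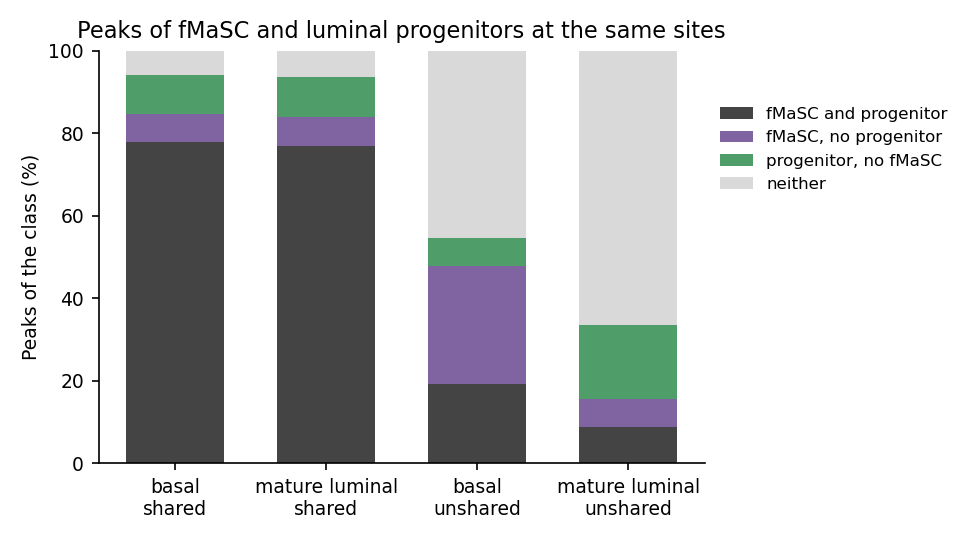
Share of each class of peaks (y axis, percent) that overlaps peaks of fMaSC and luminal progenitors, of fMaSC alone, of progenitors alone or of neither (colours), for shared and unshared basal and mature luminal peaks (x axis). Shared classes hold both in 77.8% and 76.9%, and unshared mature luminal peaks hold neither in 66.5%.

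Sites of mature luminal cells that basal cells lacked were often among those closed in SOX10-high PY230 cells, and sites of basal cells that mature luminal cells lacked seldom were. Of unshared mature luminal peaks, 9092 (38.3%, 37.7 to 39.0%) overlapped a closed region, against 21.6% of all and 11.1% of shared mature luminal peaks. Of unshared basal peaks, 656 (1.49%, 1.38 to 1.61%) did, against 6.03% of all and 11.5% of shared basal peaks. The unshared mature luminal value was the higher on 20 of 20 chromosomes, by 28.6 to 41.5 points. With both lists cut to 30000 peaks, the basal value was 4.202% and the mature luminal value 49.4%. With both cut at their median fold, the values were 3.78% and 53.6%. Unshared peaks in these settings include some that overlap a weaker peak cut from the other list. The PY230 lists are named for tumour samples, and the sources used here do not state whether other libraries entered their calling. Nor do they state what the closed regions were compared with, and the state of peaks outside both PY230 lists is not known here.

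The open PY230 list held 3208 regions against 15108 in the closed list, which limits its share of any class of peaks. Regions open in SOX10-high cells were few at all these sites, with their highest share at unshared basal peaks. They met 903 unshared basal peaks (2.05%, 1.92 to 2.19%), compared with 1.29% of all and 0.367% of shared basal peaks. They met 107 unshared mature luminal peaks (0.451%, 0.370 to 0.545%), compared with 0.391% of all and 0.354% of shared mature luminal peaks. The unshared basal value was above the unshared mature luminal value on 20 of 20 chromosomes. Among unshared basal peaks, open regions met 5.51% of those with both an fMaSC and a progenitor peak, 4.23% of those with a progenitor peak alone, 1.299% of those with an fMaSC peak alone and 0.717% of those with neither. Open regions at unshared basal peaks therefore lay mostly where progenitors also had a peak, at 468 and 129 of the 903 peaks. Closed regions at unshared mature luminal peaks went the other way, with 42.8% of those with neither, 35.5% with a progenitor peak alone, 27.3% with an fMaSC peak alone and 18.7% with both.

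Seen from the tumour lists, 8419 of 15108 closed regions (55.7%, 54.9 to 56.5%) held a mature luminal but no basal peak, 4138 (27.4%) held both, 404 (2.67%) a basal peak alone and 2147 (14.2%) neither. Of 3208 open regions, 800 (24.9%, 23.4 to 26.5%) held a basal but no mature luminal peak, 138 (4.30%) both, 96 (2.99%) a mature luminal peak alone and 2174 (67.8%) neither. Most open regions were thus outside the sites of either cell type.

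These contrasts also appeared among peaks of like rank. In the highest quartile of each list by fold, 80.6% of 3723 unshared basal peaks held an fMaSC peak, against 18.8% of 2381 unshared mature luminal peaks. In the lowest quartile the shares were 31.6% of 16220 and 14.7% of 8453. The fetal share thus rose steeply with basal rank and little with mature luminal rank. Closed PY230 regions met 19.7% of unshared mature luminal peaks in the lowest quartile and 73.4% (71.6 to 75.2%) in the highest, while unshared basal peaks stayed between 1.26% and 1.85% in all 4 quartiles. Progenitor peaks rose with rank in both classes, from 15.8% to 49.0% for basal and from 17.3% to 65.7% for mature luminal peaks. Open regions rose from 1.70% to 3.04% along the basal quartiles and went from 0.745% to 0.126% along the mature luminal quartiles, where the last value rests on 3 peaks.

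**Figure D5:**
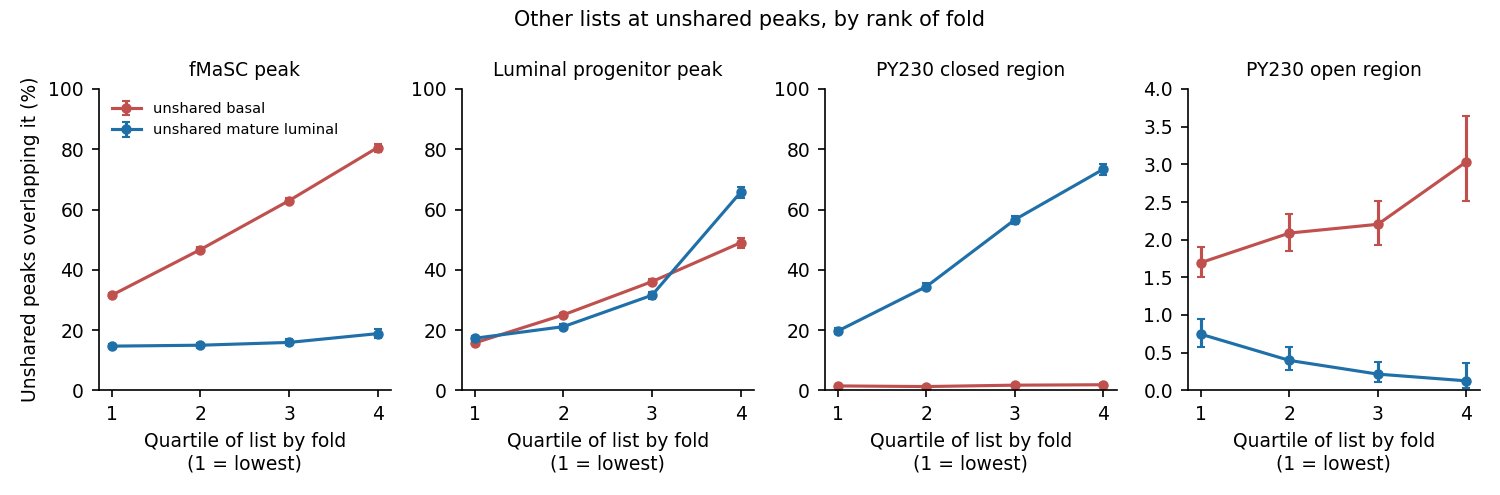
Share of unshared peaks (y axes, percent, bars are exact 95% binomial intervals) that overlap an fMaSC peak, a luminal progenitor peak, a closed or an open PY230 region, by quartile of the list by fold (x axes, 1 = lowest), for basal and mature luminal peaks. The last panel has a smaller y scale. Closed regions reach 73.4% of the strongest unshared mature luminal peaks and at most 1.85% of unshared basal peaks, and the fetal share reaches 80.6% and 18.8%.

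The authors also deposited lists of regions named for single cell types. They are much shorter than the peak lists, which limits the part of the unshared peaks that they can meet. These lists are named UAR and URR, which the labels do not expand. They are named for the same cell types and attached to the same samples as the peaks, so they were not taken as independent support. A peak was counted as inside a UAR if it overlapped one by at least 1 bp. Basal UARs met 5144 unshared basal peaks (11.7%, a number that happens to equal that of the UARs themselves), against 7.67% of all basal peaks. Mature luminal UARs met 3143 unshared mature luminal peaks (13.3%), against 6.12% of all mature luminal peaks. Of the 5144 basal UARs, 4154 (80.8%) held a basal peak without a mature luminal one and 988 (19.2%) held both. Of the 3282 mature luminal UARs, 2671 (81.4%) held a mature luminal peak alone and 609 (18.6%) both. Mature luminal URRs, 1028 in number, held a basal peak alone in 816 cases (79.4%) and both in 212. Of the 71 basal URRs, 47 (66.2%) held a mature luminal peak alone and 24 both. All 242 fMaSC URRs and all 27 luminal progenitor URRs held peaks of both cell types.

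Closed PY230 regions were frequent outside these lists too. They met 80.4% (79.0 to 81.8%) of the unshared mature luminal peaks inside mature luminal UARs and 31.9% (31.3 to 32.5%) of the 20576 outside. Unshared basal peaks met them in 1.54% inside and 1.48% outside basal UARs. For fetal peaks the basal values differed more, with 29.4% (28.1 to 30.6%) of unshared basal peaks inside UARs and 50.2% (49.7 to 50.7%) of the 38896 outside overlapping an fMaSC peak. Peaks inside UARs ranked higher, with median percentiles of 65.8 against 31.9 in basal and 74.9 against 32.6 in mature luminal cells.

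Unshared peaks mostly lay in the neighbourhood of peaks of the other cell type. The median gap to the nearest peak of the other list was 8928 bp for unshared basal and 7531 bp for unshared mature luminal peaks. Gaps to the longer basal list tend to be shorter by number alone. No value expected from the density of peaks was computed, so the distances are descriptions. A peak of the other list lay within 10 kb of 53.1% of unshared basal and 57.0% of unshared mature luminal peaks, and within 1 kb of 8.84% and 10.5%. More than 100 kb separated 1941 basal (4.41%) and 1853 mature luminal peaks (7.81%) from the other list. These remote peaks had the same median rank as those within 10 kb in either list (34.3 for basal, 35.4 for mature luminal peaks). Remote unshared mature luminal peaks overlapped a progenitor peak in 16.1%, against 29.9% of those within 10 kb, and an fMaSC peak in 20.6% against 14.9%. They met a closed PY230 region in 34.9% against 36.9% and an open one in 0.863% against 0.384%. For unshared basal peaks the remote and near values were 21.1% and 27.5% for progenitor peaks, 53.6% and 46.2% for fMaSC peaks, 0.361% and 2.06% for closed and 2.32% and 1.90% for open regions. In both classes remote peaks thus had the higher fetal and the lower progenitor share. Another peak of the same list and class lay within 10 kb of 59.4% of unshared and 54.6% of shared basal peaks, and of 37.8% of unshared and 57.4% of shared mature luminal peaks. Larger classes have closer neighbours by number alone, so these shares are descriptions.

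With both lists sorted together by start, the 3 longest runs of consecutive peaks of 1 list were compact in basal cells and spread out in mature luminal cells. Each of these 6 runs includes 1 shared peak at an end, and its other peaks are unshared. The longest run of basal peaks held 41 peaks within 148 kb of chromosome 11, from 76065596 to 76213825 (mm9). Of these, 14 lay in basal UARs, and 12 overlapped an fMaSC and 2 a progenitor peak. The next runs were 32 peaks in 415 kb of chromosome 3, from 86893885 to 87308980, and 29 peaks in 172 kb of chromosome 11, from 101674688 to 101846805. The longest mature luminal run held 24 peaks over 2033 kb of chromosome 14, from 35635810 to 37668549, and 12 of them met closed PY230 regions. It was followed by 19 peaks over 1452 kb of chromosome 1, from 175970798 to 177423234, with 7 in closed regions, and by 17 peaks over 3111 kb of chromosome 14, from 112080486 to 115190998, with 8. Runs of 10 or more peaks numbered 360 in basal cells, with 5.87% of the list, and 60 in mature luminal cells, with 1.19%. A longer list with more unshared peaks forms more and longer runs by number alone, so these counts and spans are descriptions.

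In windows of 1 Mb on a fixed grid, unshared peaks of both kinds went with the number of other peaks. Spearman's rho over 2491 windows was 0.58 between unshared basal and unshared mature luminal peaks, 0.80 between unshared and shared basal peaks and 0.74 between unshared and shared mature luminal peaks. Windows share the overall density of peaks along the genome, so these values are descriptions. Among the 1480 windows with at least 20 unshared peaks, the basal part of the unshared peaks had a median of 67.5%, with 37.5% and 88.2% as the 5th and 95th percentiles. It was above 90% in 47 windows and below 30% in 44.

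The densest windows of unshared basal peaks began at 119000001 on chromosome 7, with 82 unshared basal and 7 unshared mature luminal peaks, at 122000001 on chromosome 8, with 78 and 23, and at 117000001 on chromosome 11, with 76 and 12. They were also rich in shared peaks, with 40, 47 and 51 shared basal peaks. The densest window of unshared mature luminal peaks began at 8000001 on chromosome 9 and held 53, against 8 unshared basal and 10 shared mature luminal peaks. Of these 53 peaks, 33 lay in mature luminal UARs and 14 met closed regions, and their median rank percentile was 19.4. Windows on chromosome 14 from 26000001 and on chromosome 1 from 129000001 followed, with 49 and 43 unshared mature luminal peaks. The chromosome 9 window thus held many low-ranked mature luminal peaks that basal cells lacked. Of windows chosen afterwards as the most one-sided, that on chromosome 1 from 177000001 held 20 unshared mature luminal and 0 unshared basal peaks, and that on chromosome 6 from 93000001 held 26 unshared basal and 0 unshared mature luminal peaks.

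The 10 unshared peaks of highest fold in either list also differed in fetal and tumour overlap. They are members of the classes compared above, so they add no separate support. Among the 10 basal peaks, folds ran from 29.7 to 34.9 and places in the list from 78 to 705. Of them, 7 overlapped an fMaSC peak, 7 a progenitor peak and 1 a closed PY230 region, and 6 lay in basal UARs. Of the 10 mature luminal peaks, with folds from 31.1 to 34.9 and places from 232 to 632, 1 overlapped an fMaSC peak, 9 a progenitor peak and 9 a closed region, and 9 lay in mature luminal UARs. The last places were chosen among peaks of equal fold, 3 in the basal and 4 in the mature luminal list.

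The leading unshared basal peak lay on chromosome 4 from 69282593 to 69284632 (2040 bp), at fold 34.9, inside a basal UAR and 12.2 kb from the nearest mature luminal peak. It overlapped fMaSC and progenitor peaks. The second lay on chromosome 8 from 22044242 to 22045498, at fold 33.4, outside the UARs and 136 kb from a mature luminal peak, and overlapped an fMaSC but no progenitor peak. The third, on chromosome 16 from 90467887 to 90469544 at fold 32.1, was the only one of the 10 in a closed PY230 region. A peak of fold 30.4 on chromosome 14, from 77884347 to 77885725, overlapped neither an fMaSC nor a progenitor peak and lay in a basal UAR. It was thus the only one of the 10 found in basal cells alone among the 4 normal lists.

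The leading unshared mature luminal peaks were more alike. The first, on chromosome 18 from 13869281 to 13870108 (828 bp), had a fold of 34.9 and lay 40.2 kb from the nearest basal peak. That on chromosome 7 from 95616801 to 95617786 (986 bp) had a fold of 34.6 and lay 31.2 kb from one. That on chromosome 5 from 44542470 to 44543357 had a fold of 34.4 and lay 39.4 kb from a basal peak, and that on chromosome 11 from 80762233 to 80763404 had a fold of 32.9 and lay 75.4 kb away. Each of these 4 overlapped a progenitor but no fMaSC peak, lay in a mature luminal UAR and met a closed PY230 region. The peak of fold 32.4 on chromosome 4, from 6346718 to 6347841, was the only one of the 10 outside the closed regions. The peak of fold 31.4 on chromosome 14, from 34284320 to 34285280, was the only one without a progenitor peak.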

How the data were processed

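The authors sequenced ATAC-seq libraries of sorted nuclei as paired ends, per the labels' protocols. The mm9 build and MACS2 2.1.1, bedtools 2.20.1, Bowtie 0.12.8, SICER, FastQC and SAMtools 1.3.1 are named, with no role or order, per the submitters' processing notes. Peaks were called on both samples of a cell type together at a q-value of 0.001, per the deposited lists' names. Their fold, a ratio over background deposited by the authors, served only as a rank within a list (ties share the mean rank). UAR, URR and PY230 regions carry a score deposited by the authors, which was not used. The sources used here do not state how duplicates, repeats and Tn5 offsets were handled.

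Coordinates are 1-based. Peak lists were kept as deposited and lists on the 100 bp grid moved by 1 base. The 3 mitochondrial peaks per list were left out. Overlaps were counted with pandas 2.3.3, scipy 1.17.1 and numpy 2.4.6 in Python 3.11.15, and tested on simulated data against bedtools 2.31.1.

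The lists, regions and comparisons were chosen with earlier results of these data known. Regions named are, for each list, the 10 unshared peaks of highest fold, the 5 pairs of largest rank difference, and the 3 longest runs and 3 densest 1 Mb windows; not all are described. Sites with several partners and one-sided windows were picked after their values were seen. Gene lists, markers and motifs were not analysed here, since the annotation was of GRCm38.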

Additional observations from a re-analysis of the deposited data

How the results depend on the processing

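No paired analysis was possible because each list pools both samples of a cell type and no result comes from a test, and for the same reason no sample could be left out. In all, 6 settings were tried for 6 values. On autosomes only, all 6 stayed within the limits used (the 95% interval of a share, or 1.5 times a number). The share of basal peaks overlapping a mature luminal peak, 45.2%, was 36.0% when an overlap had to cover 50% of the peak, 55.8% with 30000 peaks per list, 46.4% with peaks at or above the median fold, 43.4% at a width of 500 bp and 46.7% with peaks within 500 bp merged. The share of mature luminal peaks overlapping a basal peak, 61.5%, was 57.8%, 56.9%, 62.7% and 56.9% under the first 4 of these and 61.5% after merging. It was above the basal share in each; the basal list is the longer in all settings but that of 30000 peaks per list. Unshared peaks numbered 13255 (basal) and 12941 (mature luminal) with 30000 peaks per list and 22159 and 11573 at or above the median fold. Fewer peaks were compared in both settings. The other list was cut as well, so some of these peaks overlap a peak that was left out. The share of unshared basal peaks in closed PY230 regions, 1.49%, was 2.101%, 4.202%, 3.78%, 1.71% and 1.36% in the order above, and that of unshared mature luminal peaks, 38.3%, was 38.1%, 49.4%, 53.6%, 35.0% and 38.7%. The second exceeded the first in all 6 settings. The cause of these moves was not tested. Depth per sample is not known here, so whether a site without a peak was closed or below the caller's threshold cannot be told apart.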
